A study of Mus musculus with 2 samples.

Results

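The 10 genes described here mark the oligodendrocyte lineage from its precursors to newly formed oligodendrocytes: Pdgfra, Cspg4, Vcan, Gpr17, Olig1, Olig2, Sox10, Nkx2-2, Bcas1 and Enpp6. They were chosen by name, and all 10 were found among the 55536 annotated genes of the gene tables. The tissue was left cerebral cortex, taken at 2 months of age from females of B6CASTF1/J, a first-generation hybrid of the C57BL/6J and CAST/EiJ strains with no treatment or engineered allele in its labels. The series held 1 such group with 2 biological replicates of 1 library each, made from 300 ng of total RNA with ERCC spike-ins. Both replicates carry the same donor entry, and no label says in words that they were separate animals, so their spread could be technical. Since there is a single condition, the data bear on the level of each gene, its transcripts and the difference between the 2 libraries, and no p-value is given.

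Oligodendrocyte precursors are dividing cells that persist in the adult cortex and give rise to myelinating oligodendrocytes. Their division depends on platelet-derived growth factor acting on the receptor PDGFRA, and their identity on the transcription factors OLIG2 and SOX10. As precursors commit, Pdgfra and Cspg4 give way to Gpr17, then to Bcas1 and Enpp6, and finally to genes of compact myelin.

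The 10 genes held 7884 of 31196858 expected counts in replicate 1 and 8540 of 32292150 in replicate 2. Levels are in TPM, a share of all transcripts corrected for their length, from tables built on alignments, called alignment-based. A further kind of table, built from the reads without those alignments, is called read-based. The tissue label fitted its defining genes, with all 8 neuron markers at 1 TPM or more in both libraries and Snap25, a synaptic vesicle fusion protein, at 1348 and 1306 TPM. These are bulk samples, in which fewer cells of a type and less RNA per cell cannot be told apart.

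All 10 genes reached 1 TPM in both libraries, as did 27.5% of annotated genes and 58.8% of nuclear protein-coding genes. Their mean levels ran from 35.9 ± 0.474 TPM for Olig1 to 1.73 ± 0.276 TPM for Nkx2-2 (SD, n = 2 libraries). Among nuclear protein-coding genes at 1 TPM or more, Olig1 stood at percentiles 74.0 and 76.0 and Nkx2-2 at percentiles 3.03 and 6.29. The members therefore ran from near the lower end of expressed coding genes, where Enpp6 and Nkx2-2 lay, up to Olig1, and none lay above percentile 76.0.

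Several of the findings rest on splice forms, so the exon junctions that tell these forms apart are shown first. Each has the last 20 bases of the upstream exon in lower case and the first 20 bases of the downstream exon in capitals, 5′ to 3′ on the strand of the gene, from the GENCODE M21 transcripts on mm10. They are reference sequence and carry no CAST/EiJ differences. Versican, the product of Vcan, has 2 large exons that carry its chondroitin sulfate attachment regions. These are the alpha exon of 2880 bases (chr13:89702918-89705797, minus strand) and the beta exon of 5217 bases (chr13:89688285-89693501). Form V0 holds both, V1 the beta exon, V2 the alpha exon and V3 neither.
V0 and V2, into the alpha exon: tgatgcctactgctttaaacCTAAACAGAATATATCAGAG
V0, alpha exon to beta exon: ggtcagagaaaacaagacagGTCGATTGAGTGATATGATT
V2, alpha exon to shared exon: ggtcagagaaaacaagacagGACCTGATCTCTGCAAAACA
V1, into the beta exon: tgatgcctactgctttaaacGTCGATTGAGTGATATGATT
V3, neither exon: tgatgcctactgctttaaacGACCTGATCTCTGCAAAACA

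**Figure D1:**
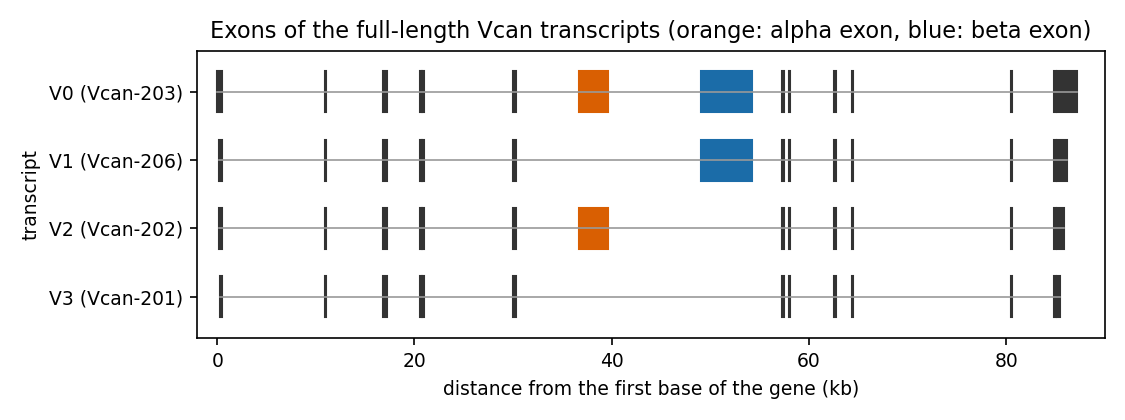
Exons of the 4 full-length Vcan transcripts, drawn to scale by distance from the first base of the gene in kb. Orange marks the alpha exon of 2880 bases, present in V0 and V2, and blue the beta exon of 5217 bases, present in V0 and V1; all other exons are dark grey.

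The junctions of Bcas1 tell whether a run of 3 exons is used, of 66, 165 and 42 bases and 273 bases in all (chr2:170356248-170370491, minus strand). They are shown because the transcripts that led in the 2 kinds of table differ in this run, among other exons.
Bcas1 with the 3 exons: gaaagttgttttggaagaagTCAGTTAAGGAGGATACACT
Bcas1 without the 3 exons: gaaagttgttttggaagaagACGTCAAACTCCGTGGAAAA

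For Pdgfra the 2 sequences part at the end of the exon at chr5:75174945-75175071 (plus strand). Transcript Pdgfra-201 splices there, whereas the shorter Pdgfra-207 reads on into the intron for 79 bases and ends without a stop codon in its annotation.
Pdgfra-201, spliced: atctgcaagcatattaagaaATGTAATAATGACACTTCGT
Pdgfra-207, reading on: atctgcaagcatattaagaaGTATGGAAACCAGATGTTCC

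Among the receptors and surface molecules, Pdgfra had the highest deposited TPM, although its place above Gpr17 depended on the transcript length used, as given further on. Pdgfra, the receptor for platelet-derived growth factor (ENSMUSG00000029231.15, chr5:75152292-75198215, plus strand, mm10), was at 17.1 and 17.8 TPM in replicates 1 and 2, on 1774 and 1788 counts. Gpr17, a G protein-coupled receptor of committed precursors (ENSMUSG00000052229.5, chromosome 18, minus strand), followed at 11.8 and 12.8 TPM on 1233 and 1423 counts. Cspg4, the proteoglycan NG2 of the precursor membrane (ENSMUSG00000032911.6, chr9:56865033-56899870, plus strand), was at 6.85 and 6.51 TPM on 907 and 921 counts. Vcan, a secreted proteoglycan of the extracellular matrix (ENSMUSG00000021614.16, chr13:89655312-89742509, minus strand), was at 7.13 and 6.18 TPM on 741 and 852 counts. The libraries of Cspg4 and Vcan overlapped in these tables, but not in the read-based ones, where Cspg4 was at 8.27 and 8.40 TPM and Vcan at 7.14 and 8.03 TPM. Pdgfra was 2.49 and 2.73 times as high as Cspg4 per length.

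Of the transcription factors, Olig1 stood well above the other 3. Olig1, a basic helix-loop-helix factor (ENSMUSG00000046160.6, chr16:91269772-91271933, plus strand), was at 35.6 and 36.2 TPM on 1499 and 1636 counts. Olig2, its relative that specifies the lineage (ENSMUSG00000039830.9, chr16:91225457-91228677, plus strand), was at 9.52 and 9.53 TPM on 473 and 507 counts. The genes lie in the same orientation with a gap of 41094 bases, and Olig1 was 3.73 and 3.80 times as high as Olig2 in TPM, or 3.74 and 3.65 times in the read-based tables. The nearest coding genes on the outer sides were Ifnar2, a subunit of the interferon receptor, at 8.80 and 8.63 TPM, and 4932438H23Rik at 0.27 and 0.39 TPM.

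Sox10, an HMG-box factor of the whole lineage (ENSMUSG00000033006.10, chr15:79154908-79165240, minus strand), was at 7.73 and 7.98 TPM on 393 and 423 counts. Olig2 was 1.23 and 1.19 times as high as Sox10. Nkx2-2, a homeodomain factor linked to the onset of differentiation (ENSMUSG00000027434.11, chr2:147177546-147194243, minus strand), was at 1.53 and 1.92 TPM on 50 and 62 counts. Nkx2-2 was thus the lowest member by mean and the most thinly counted, and its 2 libraries lay further apart for their size than those of the other 3 factors.

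Bcas1 and Enpp6, taken here as markers of newly formed oligodendrocytes, lay near opposite ends of the order. Which cells their counts came from was not tested. Bcas1, a marker of oligodendrocytes that begin to myelinate (ENSMUSG00000013523.13, chr2:170346991-170427845, minus strand), was at 18.7 and 19.7 TPM on 735 and 814 counts, next to Olig1. Enpp6, a choline-specific phosphodiesterase (ENSMUSG00000038173.15, chr8:46986887-47096762, plus strand), was at 1.74 and 1.91 TPM on 79 and 114 counts. Bcas1 was 10.7 and 10.3 times and Pdgfra 9.80 and 9.32 times as high as Enpp6 in TPM. A count of 0 would have allowed at most 0.0661 and 0.0503 TPM of Enpp6 (3 counts), so Enpp6 was measured well above the limit of detection despite its low level.

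The order of mean levels was Olig1, Bcas1, Pdgfra, Gpr17, Olig2, Sox10, Cspg4, Vcan, Enpp6 and Nkx2-2. Of the 9 pairs of neighbours in the alignment-based tables, Cspg4 with Vcan and Enpp6 with Nkx2-2 overlapped between libraries and the other 7 pairs did not. In the read-based tables Enpp6 with Nkx2-2 overlapped between libraries and no other pair of neighbours did. This compares 2 values per gene. In replicate 1 the authors' deposited bounds for TPM, of unstated level, also overlapped for Bcas1 (17.0 to 21.7) with Pdgfra (15.5 to 18.7). They overlapped as well for Olig2 (8.40 to 10.1) with Sox10 (7.03 to 9.27) and for Sox10 with Cspg4 (6.10 to 7.48). The order within these pairs is therefore less sure. The read-based tables gave 50.5 and 53.0 TPM for Olig1, 28.3 and 30.7 for Bcas1, 25.0 and 26.1 for Pdgfra, and 16.4 and 18.8 for Gpr17. They gave 1.88 and 2.75 TPM for Enpp6 and 2.03 and 3.04 for Nkx2-2, whose places were exchanged. The remaining 8 places were the same in both kinds of table.

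Read-based TPM was higher for coding genes as a whole, with a median ratio of read-based over alignment-based TPM of 1.58. After division by that median, the ratios of the members ran from 0.72 for Vcan to 0.971 for Bcas1. None lay beyond 1.5-fold, against 5.4% of protein-coding genes averaging 100 counts or more. All 10 ratios were below 1, so each member had a lower read-based level, relative to its alignment-based one, than the median coding gene.

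**Figure D2:**
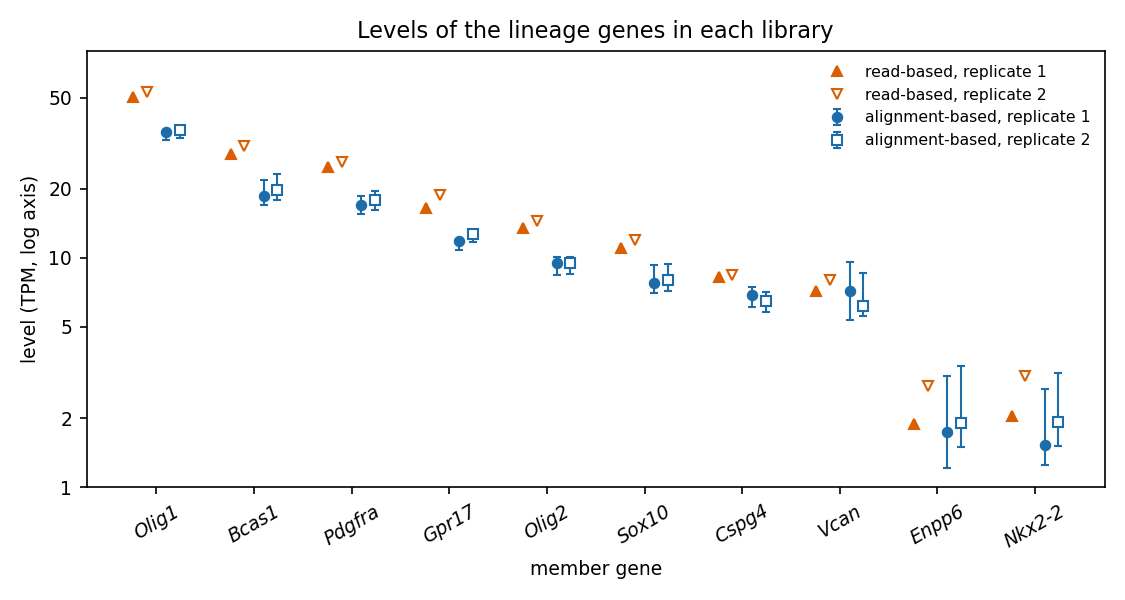
Level of each member in TPM on a log axis, with read-based values as triangles and alignment-based values as circles (replicate 1) and squares (replicate 2); bars are the authors' deposited bounds for alignment-based TPM, whose level is not stated. Olig1 was highest and Enpp6 and Nkx2-2 lowest in both kinds of table. The bars of Enpp6 and Nkx2-2 span the difference between them, and bars of some other neighbours, such as Bcas1 and Pdgfra, overlap.

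Per-length levels depend on which transcripts receive the counts, and this mattered most for Vcan and Enpp6. Vcan had more counts in replicate 2 and yet less TPM. The short transcript Vcan-204, of 294 bases, received 7.72 counts in replicate 1 and 1.48 in replicate 2, which made up 27.2% and 5.65% of the TPM of the gene, and it received 0 in the read-based tables. Likewise the Enpp6 transcripts of 1000 bases or less held 8.35 and 4 counts but 52.6% and 25.1% of the TPM. When all counts of each gene were divided by the effective length of its longest coding transcript, Vcan was at 2.94 and 3.16 TPM and Enpp6 at 0.792 and 1.07 TPM. On that scale Enpp6 was below 1 TPM in replicate 1 and below Nkx2-2, at 1.21 and 1.40 TPM, in both libraries, and the other 9 members were at 1 TPM or more. Bcas1 at 12.6 and 13.0 TPM, Pdgfra at 12.9 and 12.1 TPM and Gpr17 at 11.8 and 12.8 TPM then overlapped as neighbours, with Pdgfra below Gpr17 in replicate 2. The length used for Bcas1 was that of Bcas1-203, which received 0 counts in both libraries and both kinds of table. That for Pdgfra was of Pdgfra-202, which held a smaller share than Pdgfra-201 throughout. Cspg4, at 5.53 and 5.25 TPM, was clear of Vcan on that scale.

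Transcripts were annotated singly for Gpr17, Olig1 and Olig2, and in numbers from 4 to 9 for the other 7 members. The leading transcript, by mean share of TPM, was the same in both kinds of table for 8 members and differed for Vcan and Bcas1. That is 2 of the 7 members with several transcripts, against 25.5% of such coding genes. Between replicates the leading transcript differed for Vcan and Bcas1 in the read-based tables, against 16.6% of coding genes, and for Vcan alone in the alignment-based tables, against 13.8%.

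For Vcan, forms with the alpha exon predominated. Of the TPM of the 4 full-length forms, V0 and V2 together held 89.8% and 99.7% in the read-based tables and 85.2% and 92.0% in the alignment-based tables, in replicates 1 and 2. V0 (Vcan-203) alone held 44.8% and 50.3% read-based and 41.1% and 44.0% alignment-based. V2 (Vcan-202), known as the main versican form of the adult brain, held 45.1% and 49.4% read-based and 44.1% and 48.1% alignment-based. V2 was ahead of V0 in both alignment-based libraries and in read-based replicate 1, and V0 was ahead in read-based replicate 2. In alignment-based replicate 1 the leading transcript of the whole gene was the short Vcan-204, with 27.2% on 7.72 counts, against 26.4% for Vcan-202.

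V1 (Vcan-206), which skips the alpha exon, held 1.74% and 0% read-based and 1.64% and 0% alignment-based. In replicate 1 this rested on 12.9 read-based and 12.1 alignment-based counts. V1 shares its exons with V0, so its counts depend on how reads were assigned between forms. The upper deposited bound of its alignment-based TPM was 0.273 in replicate 1 and 0.302 in replicate 2, so the 0 does not set replicate 2 lower. V3 (Vcan-201) held 8.42% and 0.267% read-based and 13.1% and 7.97% alignment-based. V1 was therefore the lowest form in replicate 1 in both kinds of table and was assigned 0 counts in replicate 2, while the level of V3 depended on the table. The transcripts also end differently, with 1922 bases after the coding sequence in V0 and 894, 589 and 178 bases in V1, V2 and V3, so counts in the last exon do not distinguish the coding forms evenly. A retained-intron transcript, Vcan-207, held 12.6% and 19.0% of all Vcan TPM read-based and 4.91% and 8.06% alignment-based.

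Bcas1 divided mainly between Bcas1-201, with the run of 3 exons shown above, and Bcas1-208, without it, and the quantifications disagreed on their balance. The pair held 78.8% and 79.0% of Bcas1 TPM read-based and 80.4% and 75.4% alignment-based. Of the pair, Bcas1-208 took 53.5% and 42.1% read-based and 79.4% and 76.7% alignment-based. Both transcripts were therefore assigned counts in every library, and the alignment-based tables put the form without the 3 exons ahead. Reads across the junctions themselves were not counted. The 2 transcripts differ in other exons as well, and Bcas1-208 is annotated as starting inside the coding sequence, with 0 bases before it. The short noncoding transcripts Bcas1-204 (11.2% ± 3.22 of alignment-based TPM, 0 read-based) and Bcas1-209 (12.2% ± 1.25 of read-based TPM, 0 alignment-based; SD, n = 2) each appeared in a single kind of table.

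**Figure D3:**
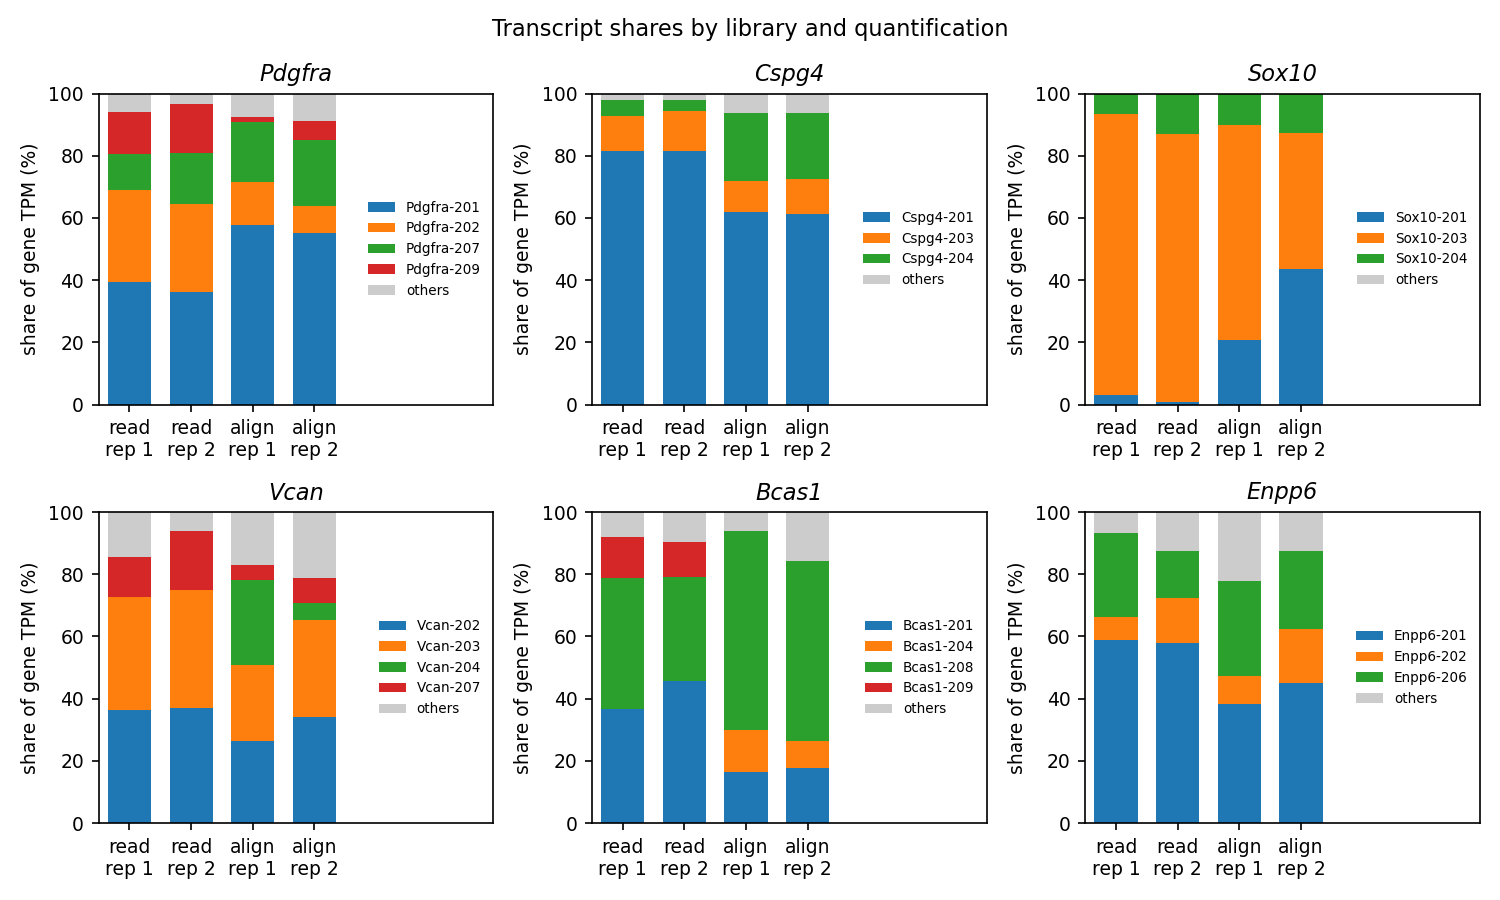
Share of each gene's TPM, in percent, held by its transcripts in each library, for 6 members with several transcripts; the left pair of bars is read-based and the right pair alignment-based. Coloured parts are transcripts with a mean share of at least 10% in either kind of table and grey is the rest. In Bcas1 the share of Bcas1-208 is larger in the alignment-based bars, and in Cspg4 that of Cspg4-201 is larger in the read-based bars.

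Pdgfra was led by Pdgfra-201, which held 37.8% ± 2.44 of its TPM read-based and 56.5% ± 1.71 alignment-based (SD, n = 2). Pdgfra-202 encodes the same length of coding sequence, 3267 bases, and starts 3593 bases downstream of Pdgfra-201. Of the summed TPM of these 2 transcripts, Pdgfra-201 took 57.3% and 55.9% read-based and 80.6% and 86.5% alignment-based. Pdgfra-201 was thus ahead in every library and table, by an amount that depended on the table. The truncated Pdgfra-207, whose junction is shown above, held 11.7% and 16.4% read-based and 19.1% and 21.3% alignment-based, on 57.2 and 85.8 read-based and 97.5 and 121 alignment-based counts. A short coding fragment, Pdgfra-209, held 14.5% ± 1.69 read-based and 3.86% ± 2.97 alignment-based.

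The promoter of Pdgfra is given because its first exon was the one used in more than 50% of the TPM of the pair. It is shown from RefSeq on GRCm38.p6, the assembly also called mm10, at chr5:75152001-75152300 on the plus strand, with the 50 bases from the RefSeq start on in capitals. That start lies 55 bases before the first base of Pdgfra-201.
Pdgfra promoter: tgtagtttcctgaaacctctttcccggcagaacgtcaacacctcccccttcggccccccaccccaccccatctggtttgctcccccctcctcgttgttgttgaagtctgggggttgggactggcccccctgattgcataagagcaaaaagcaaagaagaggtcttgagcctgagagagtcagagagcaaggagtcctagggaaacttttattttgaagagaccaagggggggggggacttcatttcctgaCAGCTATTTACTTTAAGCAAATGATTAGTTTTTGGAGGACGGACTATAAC
RefSeq promoters were matched for 6 members, Pdgfra, Cspg4, Vcan, Olig2, Nkx2-2 and Enpp6. The letters TATAAA, searched on both strands, occurred in the promoter of Olig2 and in none of the other 5 windows, against 13.6% of all 32851 RefSeq mouse promoters of that length. GC content was 65% for Olig2, 51% for Pdgfra and 40.3% for Enpp6, at percentiles 81.7, 43.0 and 10.7 of all promoters.

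Sox10 was led by Sox10-203 in both kinds of table, with 88.2% ± 3.02 of its TPM read-based and 56.4% ± 18.0 alignment-based. Sox10-201 has the same coding length of 1398 bases and a first base 750 bases away, and it held 1.99% ± 1.47 read-based and 32.2% ± 16.1 alignment-based. In alignment-based replicate 2 Sox10-203 and Sox10-201 were nearly level, at 43.7% and 43.5%, so the alignment-based lead came from replicate 1. The authors' deposited bounds for Sox10-203 ran from 1.34 to 6.55 TPM in replicate 1, so the division between these starts was poorly determined. Together they held 93.3% and 87.0% read-based and 89.9% and 87.2% alignment-based. The retained-intron transcript Sox10-204 took 9.86% ± 4.48 read-based and 11.4% ± 1.92 alignment-based.

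Cspg4 was led by Cspg4-201, its full-length coding transcript, with 81.6% ± 0.0829 of TPM read-based and 61.6% ± 0.508 alignment-based. Its 3 retained-intron transcripts together held 18.4% and 18.5% read-based and 38.0% and 38.7% alignment-based, of which Cspg4-204 and Cspg4-203 were the larger. Retained-intron transcripts held at least 20% of alignment-based TPM in 34.1% of the 8145 coding genes that have one, with medians over these genes of 13.4% read-based and 12.8% alignment-based. Among the 5 members with such a transcript, Cspg4 and Enpp6 passed 20%, and Pdgfra, Sox10 and Vcan did not.

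Enpp6 was led by its full-length Enpp6-201, with 58.5% ± 0.734 read-based and 41.7% ± 4.77 alignment-based. The retained-intron transcript Enpp6-206, of 480 bases, held 21.1% ± 8.34 read-based on 1.26 and 1.07 counts, and 27.7% ± 3.65 alignment-based on 4.12 and 4 counts. Enpp6-202 followed with 10.8% ± 4.95 read-based and 13.2% ± 5.75 alignment-based. Nkx2-2-201 led Nkx2-2 with 77.9% ± 6.71 read-based and 68.5% ± 1.80 alignment-based. Its short transcripts Nkx2-2-202, Nkx2-2-203 and Nkx2-2-204 each rested on 5.12 counts or fewer in any library, so their shares of up to 21.3% have little depth behind them.

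Some members overlap other genes on the opposite strand, and whether the counting used the strand is not stated. Lims2, an adaptor protein of cell-matrix contacts, shares 188 exon bases with Gpr17. Gpr17 had 1233 and 1423 counts, against 171 and 202 for Lims2. The antisense genes at Bcas1 and Nkx2-2 were close to empty, with Bcas1os1 at 0 and 1 counts and Nkx2-2os at 6 and 6 counts. No member had a near-identical copy among annotated transcripts at 98% identity over 80% of the shorter one.

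The members were then set beside 3 lists that follow the lineage. The median of the 10 members was 8.63 and 8.76 TPM in replicates 1 and 2. The 12 other precursor genes were all at 1 TPM or more in both libraries, with a median of 14.9 and 13.8 TPM. Tnr, which encodes the matrix protein tenascin-R, led them at 60.8 and 58.9 TPM, and Ptprz1, a receptor tyrosine phosphatase, had 50.4 and 49.1 TPM. Tnr and Ptprz1 thus exceeded every member, Olig1 included. These are levels in bulk tissue, and which cells they came from was not tested for any of the lists.

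All 10 genes of committed and newly formed oligodendrocytes were detected, with a median of 5.05 and 5.01 TPM. Fyn, a Src-family kinase, led at 51.8 and 50.2 TPM, followed by Tns3, which encodes a tensin of focal adhesions, at 15.7 and 17.2 TPM. Kif19a, a kinesin, was lowest at 1.01 and 1.35 TPM. All 14 mature oligodendrocyte genes were detected as well, with a median of 23.0 and 23.6 TPM. Mbp, which encodes myelin basic protein, was highest at 303 and 334 TPM, and Opalin, a membrane glycoprotein of oligodendrocytes, was lowest at 3.27 and 2.43 TPM. Summed TPM was 117.6 and 120.5 for the members and 789 and 842 for the mature list.

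**Figure D4:**
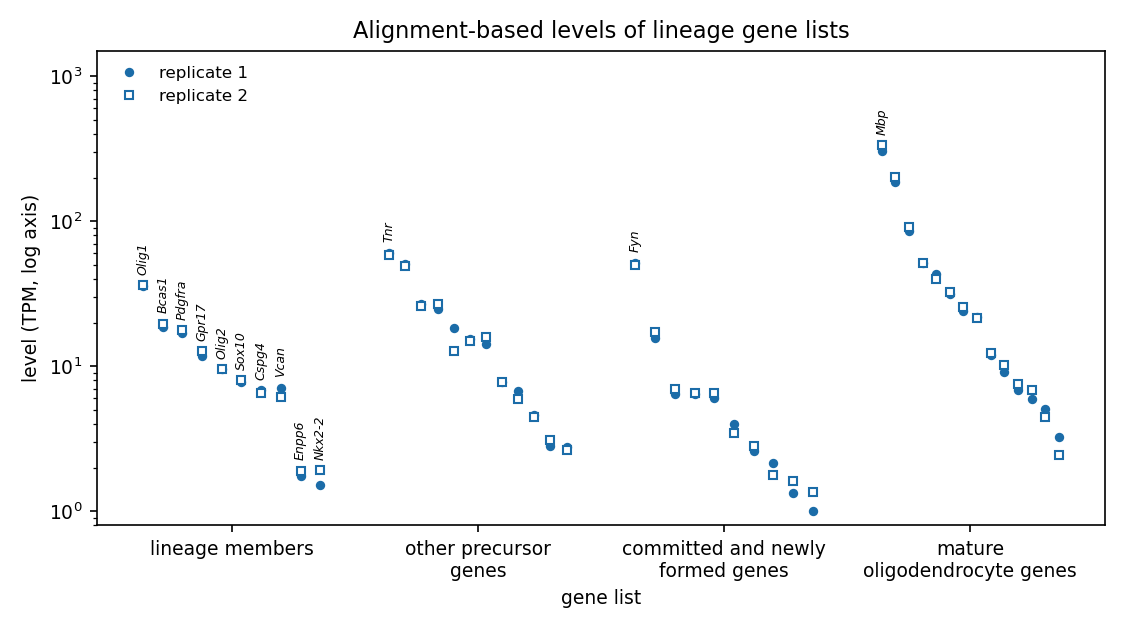
Alignment-based TPM on a log axis of the members and of 3 lists of other lineage genes, with filled circles for replicate 1 and open squares for replicate 2; each member and the highest gene of each other list are labelled. The members lie between 1.53 and 36.2 TPM, and Mbp at 303 and 334 TPM is the highest gene plotted.

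Of 13 signals and regulators of the lineage, 12 were at 1 TPM or more in both libraries. Lingo1, a membrane protein that restrains oligodendrocyte differentiation, was highest at 218 and 206 TPM, and Id2, an inhibitor of basic helix-loop-helix factors, had 65.5 and 59.7 TPM. Pdgfd, a ligand of the related receptor PDGFRB, was lowest at 1.38 and 0.83 TPM. Of 14 paralogs of the members, 10 were detected, led by the proteoglycan genes Cspg5 at 168 and 152 TPM and Bcan at 118 and 109 TPM. Acan, a lectican like Vcan and Bcan that was added after its values were seen, was at 1.68 and 1.37 TPM, below Vcan and Cspg4. Olig3, the relative of Olig1 and Olig2, was at 0 and 0.02 TPM, on 0 and 1 counts.

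After TMM scaling, no member had a ratio of replicate 2 over replicate 1 whose 95% counting interval lay wholly beyond 2-fold, against 0.307% of the 18562 genes averaging 10 counts or more. The interval missed equality in 4 of the 10 members, Gpr17, Olig1, Enpp6 and Vcan, all higher in replicate 2, against 15.1% of all genes tested in either direction. That share takes in genes down to 10 counts, whereas the members averaged 56 to 1781, so depth was not matched. Astrocyte markers and neuron markers each had 4 of 8 intervals above 0 and none below. Over the 10567 genes averaging 56 to 1781 counts, the central 95% of log2 ratios ran from -0.39 to 0.37. That range held the ratio of every member except Enpp6. The median log2 ratio was 0.12 over the members and -0.0011 over all genes tested, and 9 of 10 members had a ratio above 0.

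Enpp6 had the largest log2 ratio, 0.51 (interval 0.08 to 0.94), which is 1.42-fold on 79 and 114 counts. Gpr17 had 0.19 (0.07 to 0.30), Vcan 0.18 (0.04 to 0.32) and Olig1 0.11 (0.0031 to 0.21). Nkx2-2 had 0.29 (-0.27 to 0.86), whose width reflects its 50 and 62 counts. The remaining 5 intervals also included 0, with ratios of 0.13 for Bcas1, 0.08 for Sox10 and Olig2, 0.00097 for Cspg4 and -0.0098 for Pdgfra. Pdgfra and Cspg4, the receptor and the proteoglycan of the precursor membrane, thus had the ratios nearest to 0, within intervals of -0.11 to 0.09 and -0.13 to 0.13.

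The other lineage lists also leaned to replicate 2. The median log2 ratio was 0.06 over other precursor genes, 0.11 over committed and newly formed genes and 0.14 over mature genes. Of the 14 mature genes, 9 had an interval above 0 and none below, among them Mbp at 0.21 (0.17 to 0.24). Of all 18562 genes tested, 1517 had an interval above 0 and 1279 below. Summed scaled counts were 1.13 times as high in replicate 2 for the mature genes and 1.07 times for the members. They were 1.06 times for other precursor genes, 1.05 for astrocyte markers, 1.03 for neuron markers and 1.02 for all genes tested. No gene of the lineage lists passed the 2-fold rule.

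Pdgfra is also expressed by fibroblasts of the meninges and Cspg4 by mural cells of vessels, and markers of both were present. Of 10 meningeal fibroblast markers, 9 were at 1 TPM or more in both libraries and none was at 0. Their summed level was 102 and 75.0 TPM in replicates 1 and 2, and 6 had an interval below 0 and 1, Dcn, above it. The growth factor gene Igf2 was the highest of them at 47.5 and 28.8 TPM (log2 ratio -0.52, -0.62 to -0.42). Dcn, which encodes the matrix protein decorin, was at 9.03 and 10.7 TPM, and Lum, which encodes lumican, at 0.94 and 0.78 TPM.

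Of 10 mural cell markers, 9 were detected and none was at 0, with a summed level of 83.0 and 74.0 TPM and 5 intervals below 0. Vtn, which encodes vitronectin, was at 33.7 and 29.6 TPM, Rgs5, a regulator of G protein signalling in pericytes, at 18.1 and 18.0 TPM, and Kcnj8, a potassium channel subunit, at 0.97 and 1.04 TPM. The median log2 ratio was -0.33 for the fibroblast markers and -0.17 for the mural markers. Both lists were chosen with earlier results of these data known, so their direction is no independent result. The part of these cells in the levels of Pdgfra and Cspg4 was not tested. Astrocyte markers, with Slc1a2, Aldoc and Sox9 named by the same rule at 720 ± 14.2, 348 ± 6.08 and 8.28 ± 0.417 TPM (SD, n = 2), had a median log2 ratio of 0.06. For neuron markers, of which Camk2a, a kinase of excitatory neurons, was at 1138 ± 37.8 TPM, the median was 0.03.

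**Figure D5:**
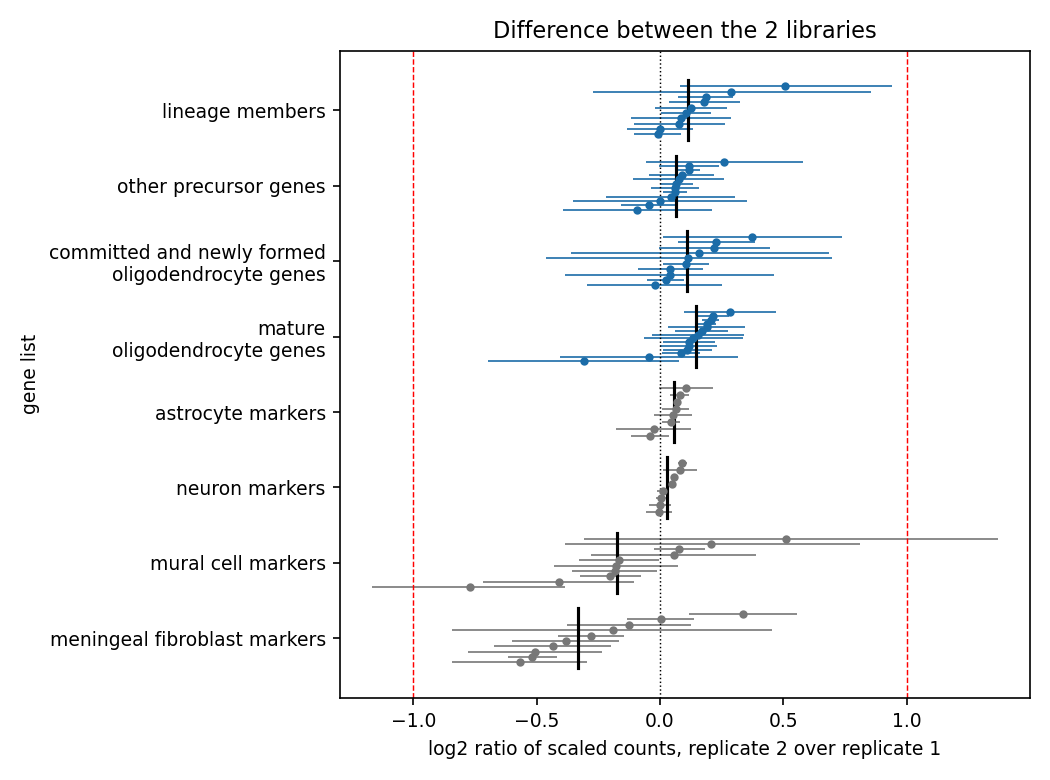
Log2 ratio of scaled counts, replicate 2 over replicate 1, for each gene of 8 lists that averaged 10 counts or more; bars are 95% counting intervals, black ticks the list medians, the dotted line equality and the dashed lines 2-fold. The median of the members is 0.12 and that of the meningeal fibroblast markers -0.33, and no interval lies wholly beyond a dashed line.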

How the data were processed

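Gene and transcript tables of 2 libraries were used. Assembly (mm10) and annotation (GENCODE M21) are those named in the list of files deposited with each library. The authors deposited expected counts, TPM and bounds for TPM per gene and per transcript from alignments, and estimated counts and TPM per transcript from the reads alone; which tools were used is not stated there. Deposited TPM is a share of everything a table quantifies, spike-ins too. Reads from CAST/EiJ alleles may be counted less well against the C57BL/6J reference.

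Deposited expected counts totalled 31196858 in replicate 1 and 32292150 in replicate 2, and spike-ins made up 0.372% and 0.363%. At these totals 3 counts correspond to 0.147 and 0.137 TPM for an effective length of 1 kb. For a gene, the read-based values of its transcripts were summed.

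Expected counts were rounded. TMM scaling (edgeR 4.0.16 in R 4.3.3) drew on the 18562 genes averaging 10 counts or more. Log2 ratios, replicate 2 over replicate 1, were taken after adding 0.5 to each count, with exact Clopper-Pearson intervals at 95%. A gene was called where the interval lay wholly beyond 2-fold. Without molecular identifiers, PCR copies count as separate reads, and the intervals and floors cover counting error alone. The rule was tested on simulated data. Alternatives were the scaling (DESeq2 1.42.0 size factors, spike-ins), filters, prior count, fold limit, kind of table and transcript length.

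The members and the lists of other genes were chosen with earlier results of these data known. All members are named, and of each other list the 2 highest genes and the lowest by mean TPM, plus any called gene; a few that this takes in are not reported here. Of the transcripts, those holding at least 10% of a gene's TPM are named, up to 3 per gene and kind of table, along with transcripts that complete a set of splice forms or show how a length weighs on TPM. Some genes stand in 2 lists (Pdgfrb, Sox9). Near-identical copies were sought with blastn 2.17.0.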

Additional observations from a re-analysis of the deposited data

How the results depend on the processing

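All 10 members kept 1 TPM in both libraries with the read-based tables, with TPM rescaled over nuclear protein-coding genes and with either library alone. With all counts over the longest coding transcript, an alternative chosen after seeing the data, 9 did. No member passed the 2-fold rule under any scaling, prior count, table or limit tried. Of 50 alternative values of the members' log2 ratios all 50 lay inside the reported interval and 0 had the other sign. Most of these reuse the same counts, and DESeq2 and spike-in scaling shifted log2 ratios by 0.0011 and 0.0052, so they could hardly leave it. Only the read-based values rest on another quantification, of the same reads. The largest shift, 0.12, was that of Enpp6 with read-based counts. Over all genes, 57 passed the 2-fold rule. The number was 89 with a 1.5-fold limit, 86 with a mean count of at least 1 and 12 with a mean count of at least 100, since these change the limit or the genes tested. It was 57 with DESeq2 size factors and with spike-ins, and 45 with read-based counts. Members within 1.5-fold between the kinds of table were 10, 9 without centring, and 10 and 9 from replicate 2 and replicate 1 alone. Members with the same leading transcript were 8, or 9 by counts, and 8 and 9 from replicate 2 and replicate 1 alone. With the longest coding transcript, mean TPM was 3.05 for Vcan, against 6.66 as reported, and 0.931 for Enpp6, against 1.83; the other members moved by less than 1.5-fold. Rescaled over nuclear protein-coding genes, the members ran from 3.81 TPM (Nkx2-2) to 79.1 TPM (Olig1). A ratio of replicates cannot leave out a replicate. No paired analysis was possible because the series has 1 group. At 50 to 114 counts, Enpp6 and Nkx2-2 limit what can be said of their ratio and transcripts.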

Other observations

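Among the committed and newly formed genes, Zfp488, a zinc finger factor of oligodendrocyte differentiation, was singled out after its values were seen. It was at 9.46 and 9.75 TPM in the read-based tables and at 1.33 and 1.63 TPM in the alignment-based tables. These values are not divided by the median ratio of 1.58 by which read-based TPM was higher for coding genes. After that division 5.4% of protein-coding genes averaging 100 counts or more lay beyond 1.5-fold.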
